A study of Homo sapiens with 6 samples.

Results

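Interferon-stimulated effector genes are the downstream arm of the interferon response. Interferons bind receptors at the cell surface, the receptors activate JAK kinases, and a complex that contains STAT2 and IRF9 enters the nucleus and binds the interferon-stimulated response element near the start of the target genes. The products detect, mark, cut or trap viral RNA and proteins, and leukaemia cells can express many of them at a low basal level without infection. The 43 genes described here were chosen by name, with earlier results of these data known. All 43 had a row among the 34371 features of the count table, matched by Ensembl gene ID with the version removed. Of these, 39 passed the filter on low counts, and GBP1, IFI27, IFI44L and EPSTI1 did not.

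The libraries came from ME-1, a human acute myeloid leukaemia cell line known for the CBFB::MYH11 fusion. The 3 SPNS2 libraries came from cells transduced with a vector for SPNS2, an exporter of sphingosine-1-phosphate, and the 3 empty vector libraries from cells transduced with the vector alone. In both groups transduced cells were selected before RNA was taken. The sources used here give neither the promoter, nor the selecting agent, nor whether a line was 1 clone. Nothing says whether the libraries are separate cultures, so the p-values measure the spread between these libraries, which may be technical.

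Library totals were 31361562 to 33540256 counts with SPNS2 and 28605187 to 38489992 counts with the empty vector. The vector SPNS2 row stood at 764 to 789 CPM (counts scaled to the library total) in the SPNS2 libraries and at 0 to 0.233 CPM in the empty vector libraries. Of 8 markers of the line, 7 had a mean of at least 1 CPM. The exception was MYH11, the fusion partner, with 14, 2 and 6 counts in the SPNS2 libraries and 4, 8 and 5 in the empty vector libraries. Markers of the line differed between groups in both directions. At an edgeR adjusted p under 0.05, KIT and PTPRC were higher with SPNS2, and CD33 and CD34 were lower. Their log2 fold changes, SPNS2 over empty vector, were 0.55, 0.26, -0.71 and -0.25. MPO, SPI1 and CBFB did not pass. Of all tested features, 24.5% passed in either direction. Marker lists of other cell types were low or incomplete. The 4 T cell markers summed to 0.895 to 1.08 CPM with SPNS2 and 0.590 to 0.773 CPM with the empty vector, with CD2 at 0 throughout. The 4 B cell markers summed to 7.37 to 7.65 CPM with SPNS2 and 6.53 to 7.32 CPM with the empty vector, with MS4A1 at 0. The 4 plasmacytoid dendritic cell markers summed to 1.42 to 2.87 CPM with SPNS2 and 2.78 to 6.77 CPM with the empty vector. CLEC4C and LILRA4 were at 0, and IRF7, described again below, made up most of each sum. Epithelial markers summed to 141 to 143 CPM with SPNS2 and 119 to 128 CPM with the empty vector, with KRT18 and KRT19 at 0 and EPCAM making up nearly all of it. Fibroblast and endothelial markers overlapped between groups, at 2.91 to 4.26 CPM with SPNS2 and 3.10 to 3.81 CPM with the empty vector. The part of these markers in the results was not tested.

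The stretches below lie before the transcript starts of the 6 members with the smallest p that hold the core of the interferon-stimulated response element there. They were chosen for holding the core, so they share it by construction. The core was searched as GAAA and GAAA with any 2 bases between them, on both strands, and capitals mark each match. Sequences are from RefSeq, build GRCh38.p14, written 5′ to 3′ on the strand of the gene.
IFI6, chr1:27672264-27672360, minus strand: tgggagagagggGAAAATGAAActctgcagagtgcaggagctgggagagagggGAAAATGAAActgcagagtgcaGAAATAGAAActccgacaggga
RSAD2, chr2:6877620-6877653, plus strand: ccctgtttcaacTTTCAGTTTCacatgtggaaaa
IFIT3, chr10:89327829-89327896, plus strand: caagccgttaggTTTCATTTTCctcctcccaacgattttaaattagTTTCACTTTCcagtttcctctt
IFITM3, chr11:320874-320924, minus strand: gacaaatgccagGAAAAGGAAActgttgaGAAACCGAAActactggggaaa
IFI44, chr1:78649759-78649788, plus strand: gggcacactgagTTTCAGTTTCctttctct
MX1, chr21:41431842-41431875, plus strand: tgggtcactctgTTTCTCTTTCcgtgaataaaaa

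The IFI6 stretch held 3 matches in 97 bases, the upstream pair of them alike. The IFIT3 and IFITM3 stretches held 2 matches each, and those of RSAD2, IFI44 and MX1 held 1 each. RSAD2, IFIT3, IFI44 and MX1 have several annotated starts in RefSeq, and the stretch shown belongs to the start listed first that has a match before it. For RSAD2 and MX1 that start lies downstream of another annotated start.

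Most of the effector genes were higher in cells with added SPNS2. Of 39 tested members, 28 rose, 0 fell and 11 did not pass an adjusted p of 0.05 (edgeR quasi-likelihood test, Benjamini-Hochberg adjustment over 13308 features). Over all tested features 11.9% were called higher and 12.6% lower. The median log2 fold change was 0.31 over the 39 members and 0.00263 over all tested features. The members that rose changed by 1.08-fold to 2.48-fold, 7 of them by more than 2-fold, a size that 0.609% of all features reached upwards, and 10 of them by less than 1.2-fold. The log2 fold change was above 0 in 36 of the 39 members, against 50.7% of all features. In bulk libraries, a change in the share of cells that express a gene and a change per cell cannot be told apart. In 32 members every SPNS2 library lay above every empty vector library, against 19.8% of all features. These 32 and the 36 above include IFIT5, which met the filter on low counts only through the SPNS2 libraries. In 1 member, IFITM2, every SPNS2 library lay below, against 20.3% of all features.

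The shift was present in each SPNS2 library. Relative to the mean of the empty vector libraries, the median member stood 0.30, 0.35 and 0.28 higher in SPNS2 libraries 1, 2 and 3 on the log2(CPM + 0.5) scale. The same measure was 0.03, 0.0002 and -0.02 in the empty vector libraries 1, 2 and 3. Above the empty vector mean lay 34, 37 and 36 of 39 members in the SPNS2 libraries, and 23, 20 and 17 in the empty vector libraries. The SPNS2 libraries lay close to each other on this measure, and apart from all empty vector libraries. The reference is the mean of the empty vector libraries themselves, so their values lie around 0 by construction.

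**Figure D1:**
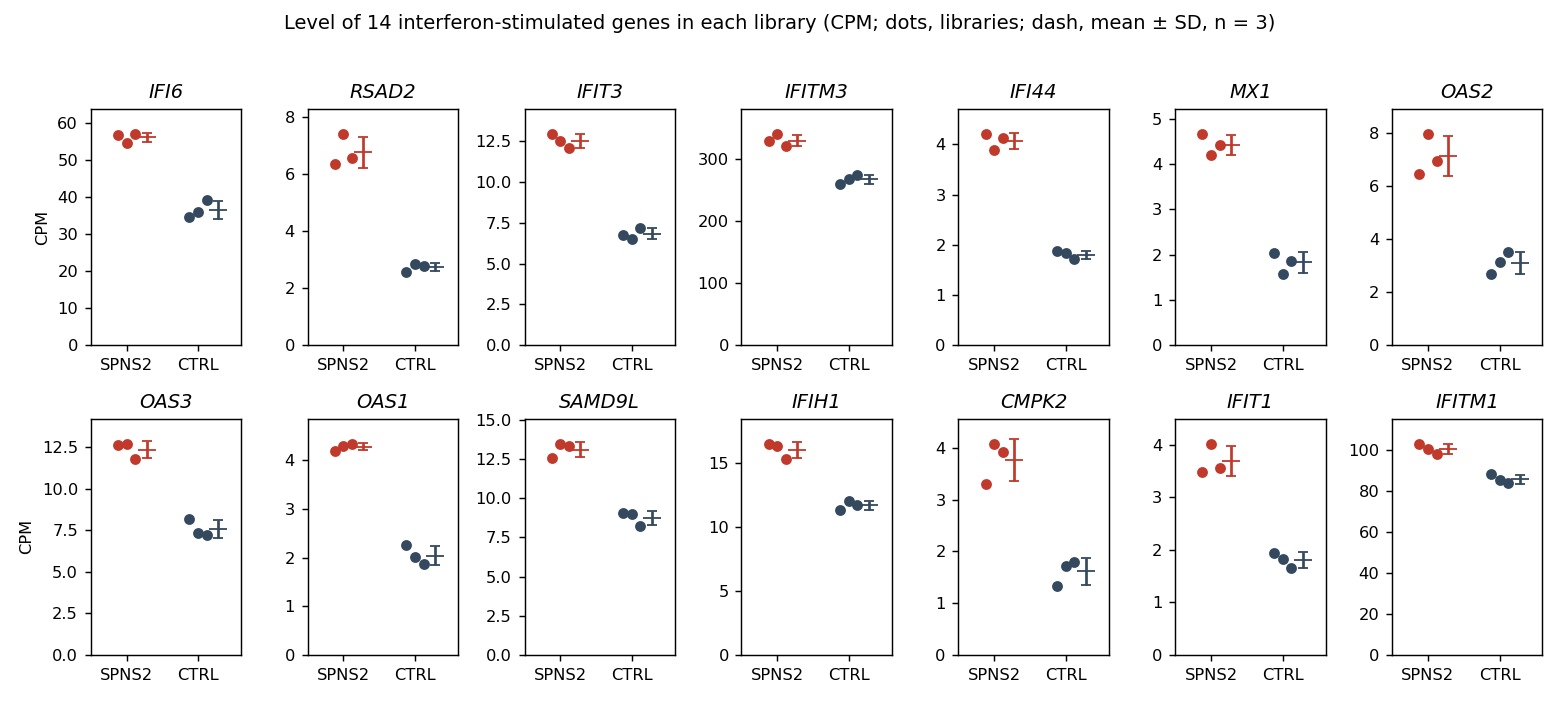
Level in CPM of the 14 tested members with the smallest p, in each of 3 SPNS2 and 3 empty vector (CTRL) libraries, with the mean and SD beside the dots. In each of the 14 panels all SPNS2 dots lie above all empty vector dots, and RSAD2 averaged 6.77 CPM with SPNS2 and 2.74 CPM with the empty vector.

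The IFIT proteins bind viral RNA through tetratricopeptide repeats, IFIT1 by recognising caps that lack a methyl group. IFIT3, which stabilises IFIT1, stood at 12.9, 12.5 and 12.1 CPM in the SPNS2 libraries and at 6.74, 6.53 and 7.20 CPM in the empty vector libraries. It rose by 0.87 in log2 units (standard error 0.0753; edgeR adjusted p = 2.10e-05). IFIT1 had 3.49, 4.01 and 3.56 CPM with SPNS2 and 1.95, 1.83 and 1.64 CPM with the empty vector, with no overlap between groups. Its log2 fold change was 1.02 (standard error 0.136; edgeR adjusted p = 0.000354). IFIT2 rose by 0.67 on the log2 scale. IFIT5, the least abundant of the family, averaged 0.525 ± 0.0984 CPM with SPNS2 and 0.257 ± 0.0717 CPM with the empty vector (SD, n = 3 each), and the log2 fold change of 0.996 did not pass (edgeR adjusted p = 0.0622). All 4 IFIT genes had groups that did not overlap, with SPNS2 higher, as in 19.8% of all features. IFIT5 had 18, 19 and 14 counts in the SPNS2 libraries and 11, 5 and 10 in the empty vector libraries. Scaled to library size, it met the filter only through the SPNS2 libraries, so its direction is not independent of its being tested.

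OAS enzymes sense double-stranded RNA and make 2-5A, the second messenger that activates RNase L. Of the 4 tested, 3 rose and 1 did not pass. OAS2 had 6.48, 7.96 and 6.97 CPM in the SPNS2 libraries and 2.67, 3.16 and 3.51 CPM in the empty vector libraries. Its log2 fold change of 1.2 (standard error 0.129; edgeR adjusted p = 9.02e-05) was the largest of the family. OAS1 was at 4.20, 4.30 and 4.33 CPM with SPNS2 and at 2.26, 2.002 and 1.86 CPM with the empty vector. It rose by 1.06 in log2 units (standard error 0.125; edgeR adjusted p = 0.000170), and its SPNS2 libraries lay close together. OAS3, the form with most affinity for long double-stranded RNA, stood at 12.6, 12.7 and 11.7 CPM with SPNS2 and at 8.20, 7.34 and 7.20 CPM with the empty vector. It rose by 0.70 in log2 units (standard error 0.0789; edgeR adjusted p = 0.000127). OASL, which lacks the enzyme activity, had a log2 fold change of 0.33 that did not pass (edgeR adjusted p = 0.165).

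RSAD2 and CMPK2 lie next to each other on chromosome 2 and act on one nucleotide route: CMPK2 makes CTP in mitochondria, and RSAD2, or viperin, turns CTP into a chain terminator of viral RNA synthesis. RSAD2 stood at 6.36, 7.39 and 6.55 CPM in the SPNS2 libraries and at 2.57, 2.85 and 2.79 CPM in the empty vector libraries. Its log2 fold change of 1.31 was the largest of all 39 members (standard error 0.112; edgeR adjusted p = 1.94e-05). CMPK2 had 3.30, 4.08 and 3.92 CPM with SPNS2 and 1.32, 1.72 and 1.80 CPM with the empty vector. It rose by 1.23 in log2 units (standard error 0.159; edgeR adjusted p = 0.000312), so both genes of the pair more than doubled. ISG20, an RNA exonuclease, was near the lower end of detection, at 0.822 ± 0.373 CPM with SPNS2 and 0.643 ± 0.154 CPM with the empty vector (SD, n = 3 each), and did not pass (edgeR adjusted p = 0.531).

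MX1 and MX2 are dynamin-like GTPases that block viral ribonucleoproteins and capsids. MX1 had 4.66, 4.20 and 4.42 CPM in the SPNS2 libraries and 2.05, 1.58 and 1.86 CPM in the empty vector libraries. It rose by 1.26 in log2 units (standard error 0.135; edgeR adjusted p = 8.75e-05). MX2 rose by 0.90 on the log2 scale from a lower level, 1.32 ± 0.101 CPM with SPNS2 and 0.707 ± 0.0355 CPM with the empty vector (SD, n = 3 each; edgeR adjusted p = 0.00801). GBP1, the guanylate-binding GTPase of the list, had 1 count in all, in SPNS2 library 3.

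Genes of the ISG15 system had a median log2 fold change of 0.25, against 0.93 for the IFIT genes and 0.88 for the OAS genes, a difference that was not tested. The IFIT median includes IFIT5, which met the filter only through the SPNS2 libraries. ISG15 is a ubiquitin-like protein; UBE2L6 carries it, HERC5 attaches it to targets in human cells, and USP18 removes it and also holds back the type I interferon receptor. ISG15 itself averaged 7.90 ± 0.497 CPM with SPNS2 and 6.98 ± 0.359 CPM with the empty vector (SD, n = 3 each), and the log2 fold change of 0.18 (SE 0.0874) did not pass (edgeR adjusted p = 0.173). USP18 rose by 0.75 on the log2 scale, with 2.87 ± 0.294 CPM with SPNS2 and 1.71 ± 0.204 CPM with the empty vector (SD, n = 3 each; edgeR adjusted p = 0.00499). Of the 31-base words in USP18 transcripts of GENCODE 29, 28.8% also occur in USP41, so the division of reads between those genes is uncertain. UBE2L6 rose by 0.12, HERC6 by 0.26 and HERC5 by 0.25 on the log2 scale.

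Among IFIH1, DHX58, EIF2AK2 and ADAR, which bind double-stranded RNA, IFIH1, which encodes MDA5, had the largest log2 fold change. It stood at 16.4, 16.3 and 15.3 CPM in the SPNS2 libraries and at 11.3, 12.01 and 11.7 CPM in the empty vector libraries. The log2 fold change was 0.46 (standard error 0.0589; edgeR adjusted p = 0.000302), with no overlap between groups. DHX58, which encodes the regulator LGP2, rose by 0.22, and EIF2AK2, the kinase PKR that halts translation, rose by 0.15 on the log2 scale. With DESeq2, DHX58 did not pass (adjusted p = 0.0551). ADAR, which edits adenosine in double-stranded RNA, averaged 283 ± 9.64 CPM with SPNS2 and 281 ± 6.13 CPM with the empty vector (SD, n = 3 each). These values pool all transcripts of the gene. The log2 fold change of 0.00769 (SE 0.0303) did not pass.

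**Figure D2:**
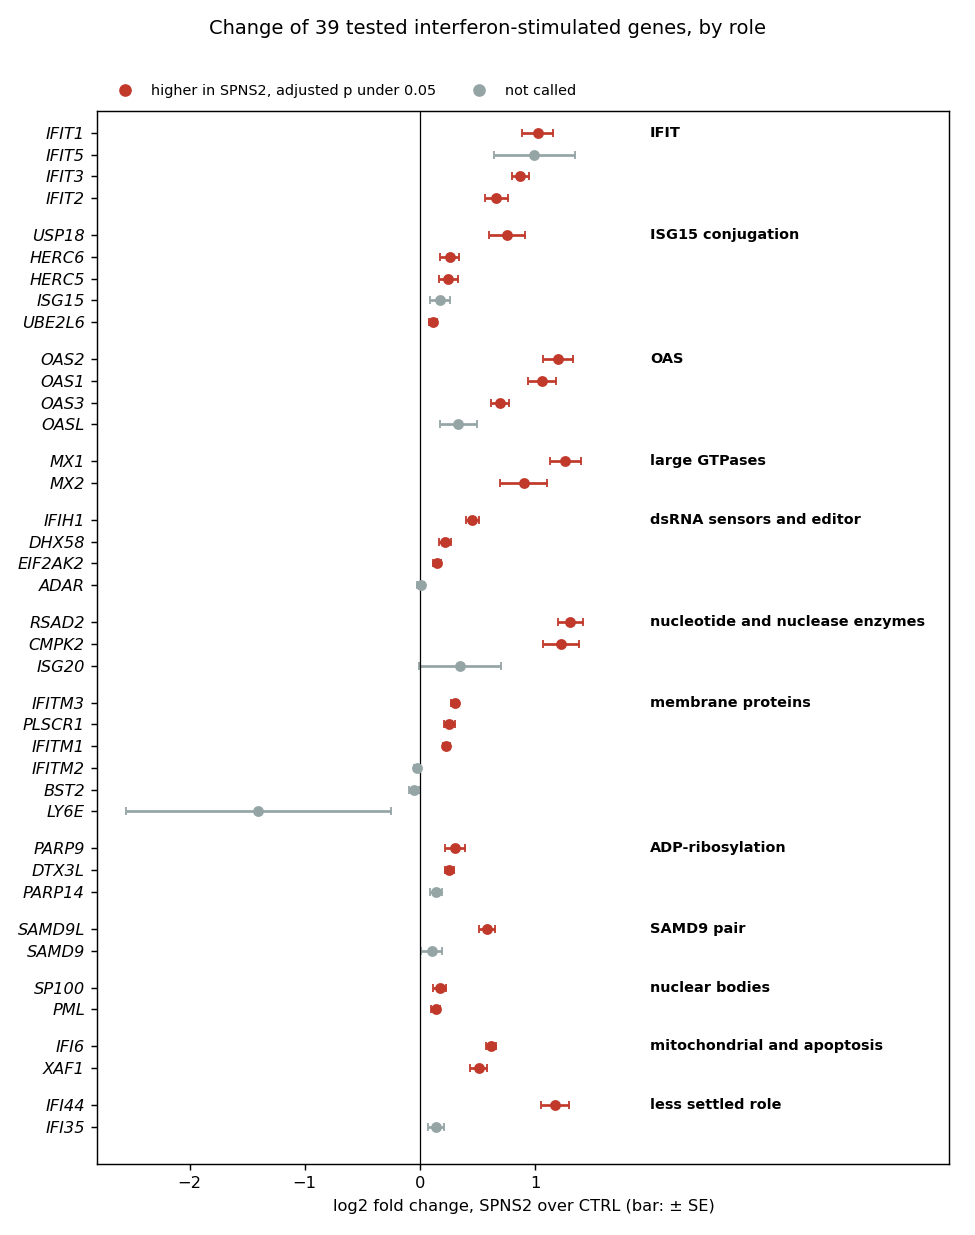
The log2 fold change, SPNS2 over empty vector (CTRL), with its SE for the 39 tested members, grouped by role from top to bottom; red marks the 28 members called higher. RSAD2 (1.31), MX1 (1.26) and CMPK2 (1.23) lie farthest to the right, and LY6E has the widest bar, with an SE of 1.151.

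The membrane proteins were divided. IFITM proteins sit in the plasma or endosomal membrane and block fusion of enveloped viruses. IFITM3 stood at 328, 339 and 320 CPM in the SPNS2 libraries and at 259, 267 and 274 CPM in the empty vector libraries, a log2 fold change of 0.30 (standard error 0.0303; edgeR adjusted p = 5.61e-05). IFITM1 had 103, 101 and 98.2 CPM with SPNS2 and 88.2, 85.4 and 84.0 CPM with the empty vector, and rose by 0.23 in log2 units (standard error 0.0321; edgeR adjusted p = 0.000490). IFITM2 averaged 281 ± 1.505 CPM with SPNS2 and 285 ± 2.09 CPM with the empty vector (SD, n = 3 each), and the log2 fold change of -0.02 did not pass. The 3 genes are adjacent and similar, so their separate values are uncertain: 36.6% of the 31-base words of IFITM1, 44.5% of those of IFITM2 and 34.3% of those of IFITM3 occur in transcripts of other genes in GENCODE 29. Summed, the 3 genes were at 710 ± 10.03 CPM with SPNS2 and 638 ± 7.74 CPM with the empty vector (SD, n = 3 each), a ratio of 1.11.

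PLSCR1, a phospholipid scramblase that limits viral entry, rose by 0.26 in log2 units (edgeR adjusted p = 0.00294). BST2, or tetherin, holds budding virions at the cell surface; it averaged 132 ± 6.32 CPM with SPNS2 and 136 ± 7.25 CPM with the empty vector (SD, n = 3 each) and did not pass. LY6E, a lipid-anchored protein that restricts coronavirus entry, varied widely within each group. It had 0, 20.9 and 1.84 CPM in SPNS2 libraries 1, 2 and 3, and 0, 40.4 and 20.5 CPM in empty vector libraries 1, 2 and 3. Both libraries numbered 1 were thus listed at 0, and the log2 fold change of -1.40 (standard error 1.151; edgeR adjusted p = 0.423) had a larger error than that of any other tested member.

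IFI6 and XAF1 are linked to cell death, IFI6 as a small protein that opposes it and XAF1 as a partner of the inhibitor XIAP. IFI6 had the smallest p of the members. It stood at 56.7, 54.8 and 56.9 CPM in the SPNS2 libraries and at 34.6, 36.0 and 39.2 CPM in the empty vector libraries, with a log2 fold change of 0.62 (standard error 0.0449; edgeR adjusted p = 6.37e-06). XAF1 rose by 0.51 on the log2 scale. IFI27, of the same family as IFI6, held 6 counts over the SPNS2 libraries and 4 over the empty vector libraries.

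SAMD9 and SAMD9L are neighbouring genes on chromosome 7 whose products restrict poxviruses and curb growth of myeloid cells. SAMD9L had 12.6, 13.5 and 13.3 CPM in the SPNS2 libraries and 9.05, 8.99 and 8.26 CPM in the empty vector libraries. It rose by 0.58 in log2 units (standard error 0.0703; edgeR adjusted p = 0.000204). SAMD9 averaged 7.71 ± 0.582 CPM with SPNS2 and 7.17 ± 0.438 CPM with the empty vector (SD, n = 3 each), and the log2 fold change of 0.10 (SE 0.0913) did not pass. Whether the change differed between both paralogs was not tested. In the ADP-ribosylation group, PARP9 and its ubiquitin ligase partner DTX3L rose by 0.31 and 0.26 on the log2 scale, and PARP14 had a log2 fold change of 0.14 that did not pass (edgeR adjusted p = 0.0826). SP100 and PML, which build nuclear bodies, rose by 0.17 and 0.14 on the log2 scale.

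IFI44 and IFI44L are adjacent on chromosome 1 and encode cytosolic proteins of less settled role. IFI44 stood at 4.20, 3.88 and 4.12 CPM in the SPNS2 libraries and at 1.87, 1.83 and 1.71 CPM in the empty vector libraries, a rise of 1.17 on the log2 scale (standard error 0.124; edgeR adjusted p = 8.37e-05). IFI44L was too low for the test, with 8, 7 and 10 counts in the SPNS2 libraries and 0, 0 and 1 in the empty vector libraries. Pooled and scaled by library size, the ratio was 25.4, with an exact 95% interval of 4.16 to 1044 that covers counting error only. IFI35 had a log2 fold change of 0.14 that did not pass (edgeR adjusted p = 0.171), although its groups did not overlap. EPSTI1 held 5 counts over the SPNS2 libraries and 2 over the empty vector libraries.

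Some calls were lost when a library was left out, which also leaves fewer libraries in 1 group. Over all features, 1079 to 1294 were called higher in those fits, against 1580 with all libraries. Of the 28 members that rose, 21 were also called with each of the 6 libraries left out in turn, which held for 6.33% of all features. HERC5 (adjusted p = 0.04999 by edgeR with all libraries) and HERC6 (0.0411) lost the call without any 1 of the 6 libraries, at adjusted p of 0.0759 to 0.181 and of 0.0584 to 0.127. SP100 lost it without any library but empty vector library 1 (0.0697 to 0.128). UBE2L6 lost it without SPNS2 library 1 or 2, or empty vector library 1 or 3 (0.0783 to 0.108). PARP9 lost it without SPNS2 library 1 or 3, or empty vector library 1 or 3 (0.0872 to 0.0948). PML lost it without SPNS2 library 2, or empty vector library 1 or 3 (0.0543 to 0.0998), and EIF2AK2 without empty vector library 2 (0.0533) or SPNS2 library 3 (0.0503). PARP14 passed without SPNS2 library 3 (0.0260). Tested against a minimum change of 1.2-fold, 14 members were higher, against 1.48% of all features.

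Tested members with a low level in empty vector cells had larger log2 fold changes than abundant ones. Levels were compared per length, as CPM per kb of the longest GENCODE 29 transcript. Of 11 tested members under 1 CPM per kb with the empty vector, 8 rose, with a median log2 fold change of 1.02. Of 14 members at 1 to 5 CPM per kb, 12 rose, with a median of 0.38, and of 14 members at 5 CPM per kb or more, 8 rose, with a median of 0.16. All tested features had medians of 0.07, 0.04 and -0.01 in the same ranges, and 8.15%, 13.5% and 12.7% of them were called higher. The empty vector level that sets the ranges is also the denominator of the fold change, so the ranges are not independent of it. IFIT5, in the lowest range, met the filter only through the SPNS2 libraries. The trend over the ranges was not tested. Of the 14 members at 5 CPM per kb or more, IFI6, at 43.5 CPM per kb with the empty vector, had the largest log2 fold change, 0.62; the next were IFITM3 with 0.30 and DTX3L with 0.26.

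**Figure D3:**
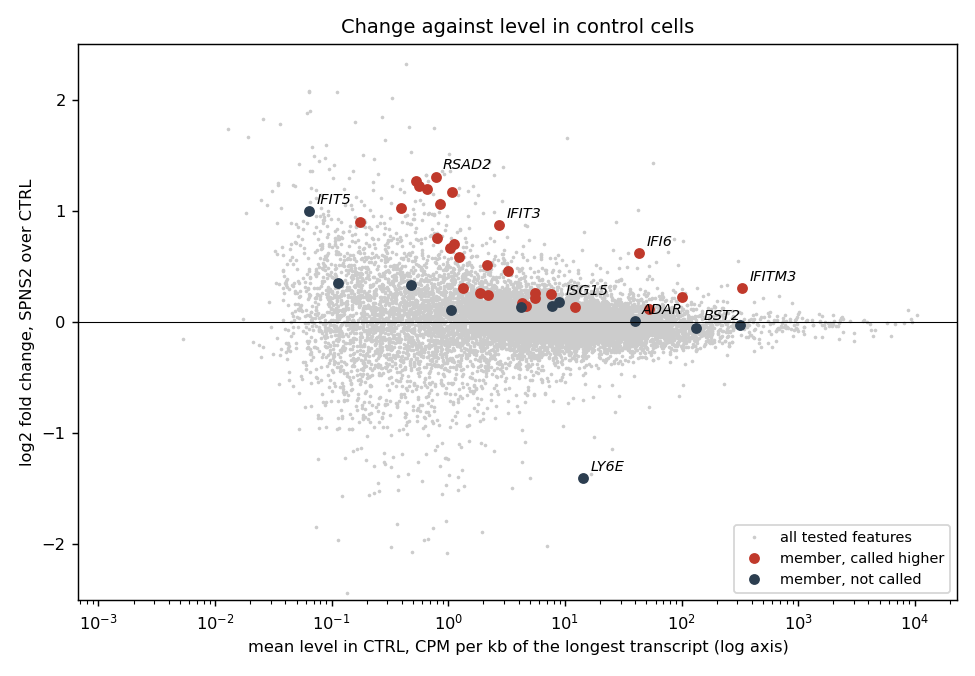
The log2 fold change, SPNS2 over empty vector (CTRL), against the mean level in the empty vector libraries in CPM per kb (log axis), for all tested features with a length (grey) and the 39 tested members (red, called higher; dark, not called). Members under 1 CPM per kb have a median of 1.02, and those at 5 CPM per kb or more a median of 0.16; features beyond 2.5 in either direction are outside the plotted range, and the vector SPNS2 row is left out.

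Beyond the printed stretches, the core of the response element was frequent in the members as a group. RefSeq windows of 250 bases before to 50 bases after a start were available for 34 members, and 25 of them (73.5%) held the core in at least 1 window. Over all 27305 genes with a window, 4.38% did. Of 49 matches, counted in each window, in the members' windows, 44 lay wholly before the start, all of these within 200 bases of it. The gamma-activated site, searched as TTCNNNGAA, which reads the same on both strands, was in windows of 9 members (26.5%) and of 9.38% of all genes, and in 6 of 49 member windows it overlapped a match to the first motif. A match is a run of letters and does not show that a factor binds there. The search used a fixed pattern within these windows, so a missing match does not show that a gene lacks the element.

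Members rose both with and without a match to the core in their windows. Of 21 tested members with the response element core, 15 rose, with a median log2 fold change of 0.31. Of 9 tested members with a window but no match, 7 rose, with a median of 0.26; among them were OAS1, CMPK2, SAMD9L and XAF1. ISG15, BST2, SAMD9, PARP14, IFIT5 and ISG20 held a match and were not called.

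**Figure D4:**
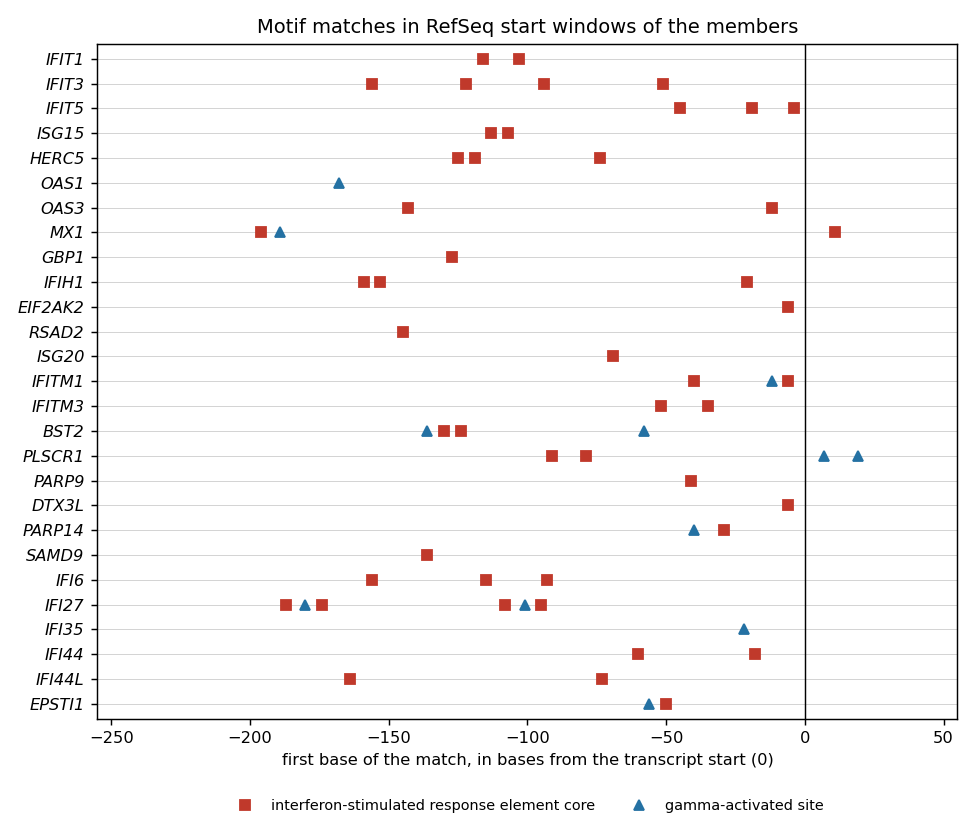
Position of the first base of each motif match, in bases from the transcript start (0), in RefSeq windows of the 27 members that hold either motif; squares mark the response element core and triangles the gamma-activated site. Genes with several annotated starts show a match once for each start, and all upstream matches to the response element core lie within 200 bases of the start.

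The genes that make, sense and relay interferon were read as a separate list of 47. The listed ligands were at or near 0, and of the IFNA genes only IFNA1 and IFNA2 were on the list. Of 10 interferon genes, 8 had 0 counts in all 6 libraries, and IFNB1 and IFNL3 had 1 count each, in SPNS2 libraries 1 and 2. A count of 0 in a library allows up to 0.0778 to 0.105 CPM at these depths. None of 6 receptor chains passed, with log2 fold changes of -0.19 to 0.05. IFNAR1, a chain of the type I receptor, averaged 26.4 ± 0.618 CPM with SPNS2 and 25.5 ± 0.259 CPM with the empty vector, and IFNAR2 averaged 16.3 ± 0.558 CPM with SPNS2 and 17.2 ± 0.505 CPM with the empty vector (SD, n = 3 each).

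Of 11 tested kinases and transcription factors, 4 rose, 2 fell and 5 did not pass, where 11.9% of all features were called higher and 12.6% lower. STAT2 stood at 71.8, 74.8 and 74.3 CPM in the SPNS2 libraries and at 65.6, 59.2 and 59.2 CPM in the empty vector libraries, a rise of 0.26 on the log2 scale (standard error 0.0426; edgeR adjusted p = 0.00127). JAK2, a kinase of the interferon gamma receptor, averaged 14.8 ± 0.357 CPM with SPNS2 and 11.7 ± 0.921 CPM with the empty vector (SD, n = 3 each) and rose by 0.34 on the log2 scale. IRF1 rose by 0.46 and IRF2, which opposes IRF1, by 0.14 on the log2 scale. IRF8, a factor of monocyte and dendritic cell fate, went the other way, with 9.75, 9.52 and 9.94 CPM with SPNS2 and 14.7, 15.6 and 13.5 CPM with the empty vector. It fell by 0.58 in log2 units (standard error 0.0697; edgeR adjusted p = 0.000185). IRF7, the factor that amplifies type I interferon, had a log2 fold change of -1.08 (edgeR adjusted p = 0.0440), with 2.41, 1.94 and 1.22 CPM with SPNS2 and 2.49, 2.81 and 6.52 CPM with the empty vector. Without empty vector library 3 it was -0.51 (edgeR adjusted p = 0.183), and the call was also lost without SPNS2 library 1, 2 or 3 (0.0553 to 0.155). IRF9 and the adaptor STING1 were not analysed here.

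Sensors, adaptors and inhibitors showed single changes. Of 10 tested sensors and adaptors, MYD88 rose by 0.09 on the log2 scale and 9 did not pass. RIGI, a sensor of viral RNA, stood 0.63 higher in log2 units but did not pass (edgeR adjusted p = 0.112), and its groups overlapped. Of 5 inhibitors, SOCS3 rose by 0.41 on the log2 scale, with 4.78 ± 0.265 CPM with SPNS2 and 3.60 ± 0.0253 CPM with the empty vector (SD, n = 3 each), and 4 did not pass. Over the whole list, 6 of 32 tested genes rose and 2 fell, with a median log2 fold change of 0.03. Beside 11.9% called higher and 12.6% lower over all features, these counts do not set the list apart. Without SPNS2 library 1, 2 or 3, only 3, 4 and 3 of them rose, and only IRF8 fell when empty vector library 3 or any SPNS2 library was left out. IRF2 kept its call in 1, MYD88 in 1 and SOCS3 in 4 of the 6 fits with a library left out.

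**Figure D5:**
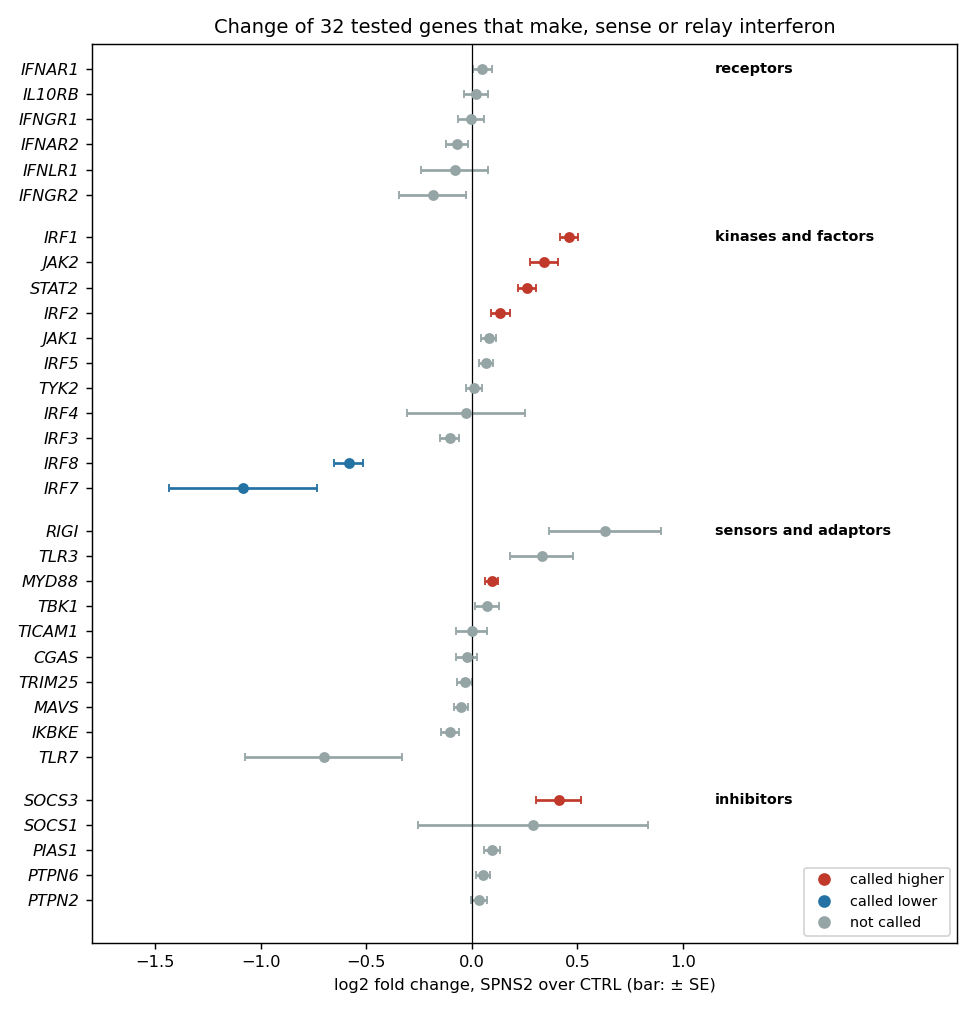
The log2 fold change, SPNS2 over empty vector (CTRL), with its SE for 32 tested genes of interferon signalling. The groups are receptors, kinases and factors, sensors and adaptors, and inhibitors. The listed ligands were too low to test. The 6 receptor chains lie between -0.19 and 0.05, IRF1 (0.46) is the highest called gene, and IRF8 (-0.58) and IRF7 (-1.08) are called lower.

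Genes that respond more to interferon gamma were taken as a last list of 14, of which 3 (IRF1, IRF8 and SOCS1) also stand in the signalling list. Of 10 tested, 3 rose and 2 fell; 5 did not pass. Over all features 11.9% were called higher and 12.6% lower. Their median log2 fold change was 0.14. CIITA, the master regulator of class II antigen presentation, had 1.79, 1.66 and 1.99 CPM in the SPNS2 libraries and 0.778, 0.738 and 0.807 CPM in the empty vector libraries. Its log2 fold change of 1.22 (standard error 0.184; edgeR adjusted p = 0.000778) was of the size of the largest among the 39 members. ICAM1, an adhesion molecule, rose by 0.11 on the log2 scale and lost the call without any 1 of the 6 libraries (adjusted p of 0.0589 to 0.179 by edgeR). WARS1, a tRNA synthetase induced by interferon gamma, fell by 0.21 on the log2 scale, at 278 ± 5.89 CPM with SPNS2 and 321 ± 0.702 CPM with the empty vector (SD, n = 3 each; edgeR adjusted p = 0.000183). GBP3, GBP4 and GBP5 did not pass, and GBP2, CXCL9, CXCL10 and CD274 had 0 to 26 counts over all 6 libraries. With any 1 library left out, 2 genes of the list rose, CIITA and IRF1.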

How the data were processed

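Polyadenylated RNA from ME-1 cells was sequenced in 6 libraries made with the TruSeq Stranded mRNA kit, per the labels' protocols. Values are estimated counts of each gene as deposited by the authors with Salmon, per the submitters' processing notes. Salmon's version, the genome build, the annotation and the strand setting were not given in the sources used here. All deposited values are whole (0 were not). Gene symbols were matched by Ensembl ID for 34329 of 34370 rows.

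The filter on low values was filterByExpr (count of at least 10, total of at least 15). TMM factors were 0.993 to 1.01. Groups were compared by quasi-likelihood F tests of edgeR 4.0.16 in R 4.3.3, and the model held the group and no covariate. A call is an adjusted p under 0.05 by the Benjamini-Hochberg method over all 13308 tested features. The SE was taken as the size of the log2 fold change divided by the root of its F. CPM uses TMM-scaled totals. The biological coefficient of variation was 4.32%. A count of 0 was taken to allow 3 counts; such limits and intervals cover counting error only. Replicates differed by more than sampling noise (chi-square per degree of freedom 3.11 to 6.09), so none was taken for a library deposited again; this does not show that they are separate cultures. The pipeline was tested on simulated counts.

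The members and lists were chosen with earlier results of these data known, and 1 further gene of the interferon lists is not reported here. Values in every library were given for the 14 members with the smallest p, and also, chosen after their values were seen, for LY6E, STAT2, IRF7, IRF8 and CIITA; members too low to test are given by counts. Alternatives were RLE scaling, library totals, no filter, a mean of at least 5 CPM, DESeq2 1.42.0, limma voom 3.58.1, the replicate block, each library left out, and a minimum of 1.2-fold (glmTreat). Promoter windows are RefSeq's (GRCh38.p14).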

Additional observations from a re-analysis of the deposited data

How the results depend on the processing

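The members called higher numbered 19 to 28 under the other scalings, filters, models and the block, and 22 to 24 with a library left out; none was called lower except under the block. Against a minimum of 1.2-fold, 14 members, 197 features in all, were higher and 121 features lower; the signalling list then had 1 gene higher and 1 lower, and the interferon gamma list 2 higher and 1 lower. At a mean of at least 5 CPM, which leaves fewer members, 19 were higher with a median of 0.23. In the signalling list 3 rose with DESeq2 and 3 to 6 with a library left out. In that list 1 gene fell at a mean of at least 5 CPM, with DESeq2, with limma voom and under the block, and 1 to 3 fell with a library left out. In the interferon gamma list 2 rose with DESeq2, under the block and with any library left out. ADAR, not called with any library left out, ranged from -0.0193 to 0.0284 over those fits and was below 0 in 3 of them (without SPNS2 2, empty vector 2 or empty vector 3). Deviations of same-numbered libraries from their group means correlated at -0.01, 0.03 and -0.03, and not every library correlated best with its own number. With 3 libraries per group, these values cannot decide whether the replicate numbers mark a shared culture or day. Under the replicate block 25 members rose and 1 fell (LY6E, edgeR adjusted p = 0.0156). In that fit 1301 features were higher and 1422 lower. The cause of these moves was not tested. With DESeq2, HERC5, HERC6, SP100 and DHX58 lost the call. The 4 members left untested had 1 to 26 counts over all libraries, and the 7 members that lost the call in some fit with a library left out changed by 1.08-fold to 1.24-fold.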

Other observations

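Many members lie in clusters, which were read with their neighbours in the RefSeq order of protein-coding genes (GRCh38.p14). Runs of adjacent members, counted among genes that were tested or are members, formed 9 clusters with 22 members, of which 21 were tested and 18 rose, with a median log2 fold change of 0.70. Of the 18 tested genes that flank these clusters, 5 rose and 0 fell, with a median of 0.10; over all tested features 11.9% were called higher and 12.6% lower. The flanking genes that rose were DNAJB4 beside IFI44L (0.48), RASAL1 beside the OAS genes (0.67), CDK6 beside SAMD9 (0.24), PARP15 beside PARP9 (0.16) and LIPA beside the IFIT genes (0.16). RASAL1 was low, at 0.902 CPM with the empty vector.

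Of 371 tested genes outside the 43 members with the core in a RefSeq start window, 14.3% were called higher, against 11.7% of 9718 without it. Their median log2 fold changes were 0.02 and -0.000577. With the gamma-activated site, 14.6% of 862 genes were called higher, against 11.5% of 9227 without it. No test was made of these differences.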
